A study of Mus musculus with 16 samples.

Results

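The 40 genes described here encode the proteins that carry glucose through the heart muscle cell: glucose transporters, the enzymes of glycolysis and of glycogen storage, the pyruvate dehydrogenase complex with its kinases, and most of the citrate cycle. They were chosen by symbol as named steps of these pathways. All 40 had a row among the 38087 gene rows of experiment A and among the 54232 rows of experiment B, and all 40 passed the filters on low values. Experiment B held 41 rows for the 40 symbols, because Aldoa had a second row at 0 to 2 normalized counts, which was not used.

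Heart RNA was compared in 2 mouse experiments on the C57BL/6 strain. Experiment A compared 3 CAP2 -/- females, which lack the actin-binding protein CAP2 in the whole body, with 3 wild-type females, all 86 weeks old. Experiment B compared 4 Cre+ mice (Loxp/Loxp, Myh6-Cre; 3 females and 1 male) with 5 controls (Loxp/Loxp, Cre-; 3 females and 2 males), all 13 weeks old. Every mouse of experiment B carried the loxP alleles, and the Myh6 promoter drives Cre in cardiomyocytes, so effects of the transgene and of losing Cap2 cannot be told apart. Another Cre+ library is labelled but not analysed here. No label states outright that the libraries come from separate animals, though the sample descriptions give each library its own number. If libraries shared an animal, the p-values would cover a spread that may be purely technical.

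Cap2 itself stood at 12.2 ± 3.89 CPM in CAP2 -/- hearts and 214 ± 15.7 CPM in wild-type hearts (SD, n = 3 each), and at 65 ± 24.2 normalized counts in Cre+ hearts (SD, n = 4) and 391 ± 288 in controls (SD, n = 5). CPM are counts scaled to a fixed normalized library total. Estimated counts summed to between 10750175 and 27440478 per library of experiment A. In experiment B the depth is unknown, since the deposited values were already normalized. Nuclear genes there summed to 3815980 to 4044523 per library, while the share of mitochondrial transcripts lay between 23.0% and 52.7% in Cre+ libraries and between 30.4% and 69.5% in control libraries. The 7 cardiomyocyte markers examined, among them Myh6 and Tnnt2, overlapped between the groups in their summed level in both experiments, and none was at 0 throughout either. A gene is termed called when its adjusted p over all genes tested is under 0.05 (Benjamini-Hochberg), by edgeR's quasi-likelihood test in experiment A and by limma in experiment B. Of the cardiomyocyte markers, 1 of 7 was called lower in Cre+ hearts (Pln, the inhibitor of the calcium pump) and 0 in CAP2 -/- hearts. The limma fold changes are on the log2(value + 1) scale, which understates the change of low genes.

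The adult heart burns mainly fatty acids and takes a smaller part of its ATP from glucose and lactate. Glucose enters through GLUT1 and the insulin-responsive GLUT4, is trapped by hexokinase, and passes its main regulated step at phosphofructokinase, which fructose 2,6-bisphosphate activates. Pyruvate then becomes lactate, or enters the mitochondrion and the citrate cycle through pyruvate dehydrogenase, which the PDK kinases switch off. Fetal and failing hearts are known for a shift in these genes towards fetal isoenzymes and glucose use.

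Few members passed the test. In CAP2 -/- hearts 1 member, Pfkfb2, fell and 0 rose, where 1.35% of all 16297 genes tested were called (0.841% higher and 0.509% lower). In Cre+ hearts 2 members, Pfkfb1 and Idh2, fell and 0 rose, where 1.88% of all 12141 genes tested were called (0.947% higher and 0.931% lower). At an unadjusted p under 0.05, edgeR gave 1 member higher and 5 lower in CAP2 -/- hearts, where 10.4% of all genes reached that mark (5.11% higher and 5.32% lower). Limma gave 4 higher and 14 lower in Cre+ hearts, where 22.1% of all genes did (7.89% higher and 14.2% lower). DESeq2 on the counts of experiment A called Pygb higher and Hk2, Idh2, Ldhb and Pfkfb2 lower, and 402 genes in all, against 220 by edgeR. The same 5 genes had an adjusted p under 0.05 in the authors' deposited table of experiment A, as had 451 of all 17250 genes with an adjusted p there. That table comes from the same experiment, so it is not a separate test.

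**Figure D1:**
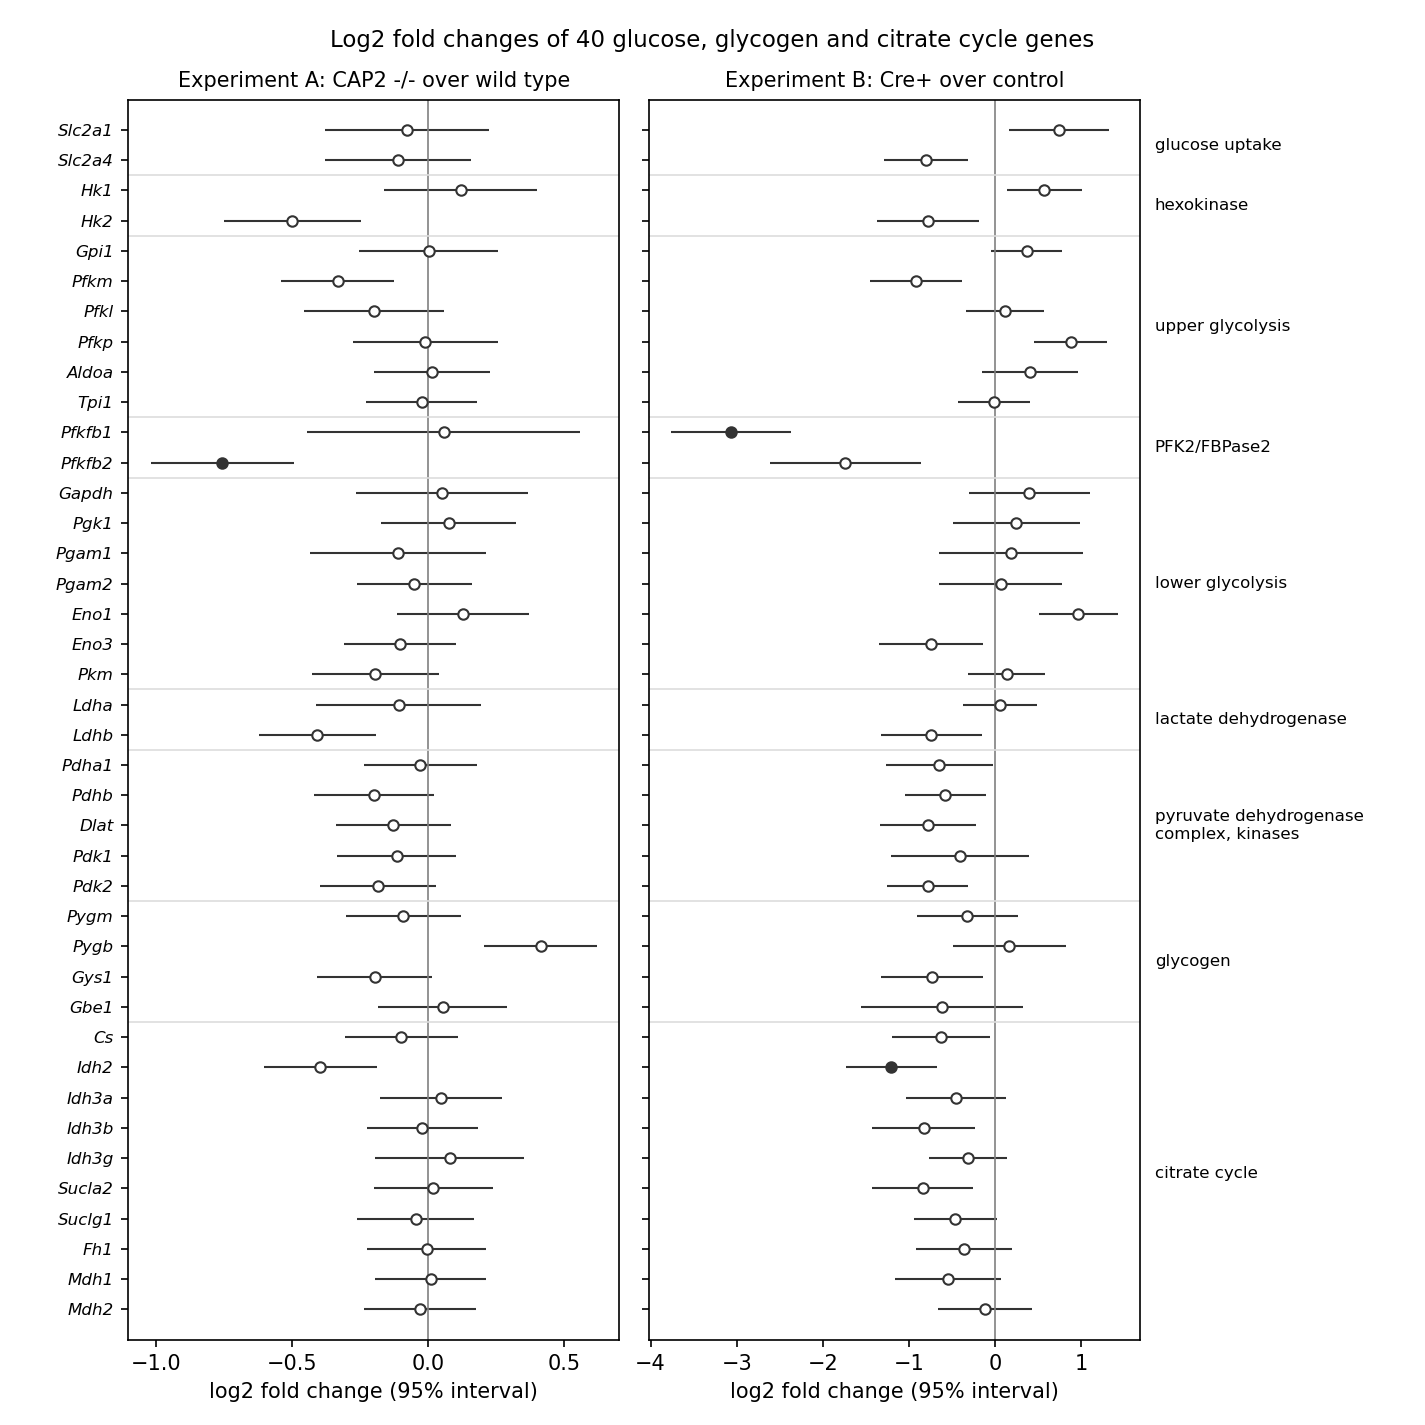
Log2 fold changes of the 40 genes (horizontal axis, points with 95% intervals) in pathway order, CAP2 -/- over wild type on the left and Cre+ over control on the right, on axes of different width. Filled points are called genes: Pfkfb2 at -0.76 in experiment A, and Pfkfb1 at -3.07 and Idh2 at -1.20 in experiment B.

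The bifunctional enzymes PFKFB1 and PFKFB2 make and remove fructose 2,6-bisphosphate, the activator of phosphofructokinase. PFKFB2 is known as the heart form and PFKFB1 as a form of liver and skeletal muscle. Each gene was called in one experiment and not in the other; the difference between experiments was not tested. Their start regions are shown because these genes carry the largest fold changes among the members in each experiment. Each is the stretch of 250 bases before an annotated transcription start, from RefSeq on GRCm38.p6, read on the gene's strand, and capitals mark a motif found there.
Pfkfb1, chrX:150594178-150594427, plus strand, before the start of the transcript with the largest deposited share in experiment A: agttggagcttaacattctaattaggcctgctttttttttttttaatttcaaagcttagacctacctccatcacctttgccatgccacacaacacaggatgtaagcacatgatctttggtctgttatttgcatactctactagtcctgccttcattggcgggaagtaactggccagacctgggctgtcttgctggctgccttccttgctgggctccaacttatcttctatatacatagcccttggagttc
Pfkfb1, chrX:150589666-150589915, plus strand, with a MEF2 site 103 bases before the start: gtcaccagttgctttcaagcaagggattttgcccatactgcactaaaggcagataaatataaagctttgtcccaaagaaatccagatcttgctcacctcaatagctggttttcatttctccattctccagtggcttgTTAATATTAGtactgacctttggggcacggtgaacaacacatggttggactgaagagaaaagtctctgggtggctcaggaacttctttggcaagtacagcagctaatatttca
Pfkfb2, chr1:130715822-130716071, minus strand, with an E-box CACGTG 16 bases before the start: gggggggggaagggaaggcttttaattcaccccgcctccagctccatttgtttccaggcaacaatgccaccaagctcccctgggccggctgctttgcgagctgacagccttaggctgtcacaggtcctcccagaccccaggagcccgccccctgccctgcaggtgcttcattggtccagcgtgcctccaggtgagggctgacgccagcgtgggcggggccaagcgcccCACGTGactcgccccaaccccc
Among the windows of this length before 32851 annotated starts of all genes, 2.92% held a MEF2 site on either strand and 6.02% held CACGTG. Of the 55 windows of the 38 members found in the RefSeq table, 2 held a MEF2 site (Pfkfb1 and Pgam2) and 4 held CACGTG (Ldha, Pdk2, Pfkfb2 and Pfkm). The core ACGTG, which every CACGTG also holds, was in 18 of the 55 windows and in 16.6% of all. The CArG box of SRF was in 0 of the 55 windows and in 1.47% of all, and the ERR site TCAAGGTCA in 0 and in 0.387%. A match of letters is a description and not a binding site, and the single window of Idh2 held none of these motifs.

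Pfkfb1 (ENSMUSG00000025271; chromosome X, 150588229 to 150643878, plus strand, GRCm38) had 20, 7, 15 and 5 normalized counts in Cre+ hearts (replicates 1 to 4), against 112, 78, 95, 89 and 69 in controls (replicates 1 to 5). Every Cre+ heart lay far below every control, and the lowest control was more than 3 times the highest Cre+ heart. It fell by 3.07 on the log2 scale (8.37-fold lower; SE 0.35, adjusted p 0.00183 by limma). The call was lost in 1 of 18 alternative settings, when the mean log2 level of the atrial markers entered as a covariate (adjusted p 0.0869, log2 fold change -2.28). In experiment A the gene had 32.8, 16.6 and 19.5 CPM in CAP2 -/- hearts, against 17.0, 26.7 and 22.6 CPM in wild-type hearts. These groups overlapped (log2 fold change 0.06, SE 0.26, adjusted p 0.967, edgeR).

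Pfkfb2 (ENSMUSG00000026409; chromosome 1, 130689182 to 130729253, minus strand, GRCm38) had 50.7, 62.2 and 66.8 CPM in CAP2 -/- hearts, against 103, 88.3 and 112 CPM in wild-type hearts. The groups did not overlap, and Pfkfb2 fell 1.69-fold (log2 fold change -0.76, SE 0.13, adjusted p 0.00624, edgeR). It was called in all 11 alternative settings of experiment A, with adjusted p from 1.67e-06 to 0.0497. If the deposited transcript values are shares within a gene, the transcript that starts at the window shown above held most of the share in both groups. Its values were 0.59 to 0.655 in CAP2 -/- hearts and 0.614 to 0.645 in wild-type hearts. In experiment B Pfkfb2 had 175, 59, 38 and 36 normalized counts in Cre+ hearts, against 366, 262, 118, 170 and 135 in controls. Cre+ replicate 1 lay among the controls and the other 3 Cre+ hearts below all of them (log2 fold change -1.74, SE 0.45, adjusted p 0.0725, limma). It was called in 2 of 18 alternative settings, without Cre+ replicate 1 and with a replicate block, and over the 18 its adjusted p ran from 0.0158 to 0.948. The log2 fold change ran from -2.16 without Cre+ replicate 1 to -0.67 with the atrial marker level as a covariate. Pfkfb3 and Pfkfb4, the remaining genes of the family, named after their values were seen, had log2 fold changes of 0.39 (adjusted p 0.62) and 0.12 (adjusted p 0.938) in CAP2 -/- hearts and 0.09 (adjusted p 0.899) and -0.03 (adjusted p 0.966) in Cre+ hearts.

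Idh2 (ENSMUSG00000030541; chromosome 7, 80094846 to 80115392, minus strand, GRCm38) encodes the mitochondrial isocitrate dehydrogenase that makes NADPH, alongside the NAD-dependent enzyme of the cycle built from Idh3a, Idh3b and Idh3g. It had 4188, 3353, 2944 and 4891 normalized counts in Cre+ hearts, against 11432, 8499, 5587, 10291 and 11111 in controls. The highest Cre+ heart lay below the lowest control, and Idh2 fell 2.30-fold (log2 fold change -1.20, SE 0.27, adjusted p 0.0488, limma). That p stood close to the threshold: Idh2 was called in 7 of 18 alternatives, with adjusted p from 0.0268 to 0.898 and log2 fold changes from -1.37 to -0.92. In experiment A it had 2193, 1848 and 2013 CPM in CAP2 -/- hearts, against 2671, 2678 and 2612 CPM in wild-type hearts. Those groups did not overlap either, but the gene was not called (log2 fold change -0.40, SE 0.11, adjusted p 0.0856, edgeR). In wild-type hearts Idh2 was the most abundant of the 10 citrate cycle members per kilobase of exonic length, at 1025 ± 14.1 CPM per kilobase (SD, n = 3).

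**Figure D2:**
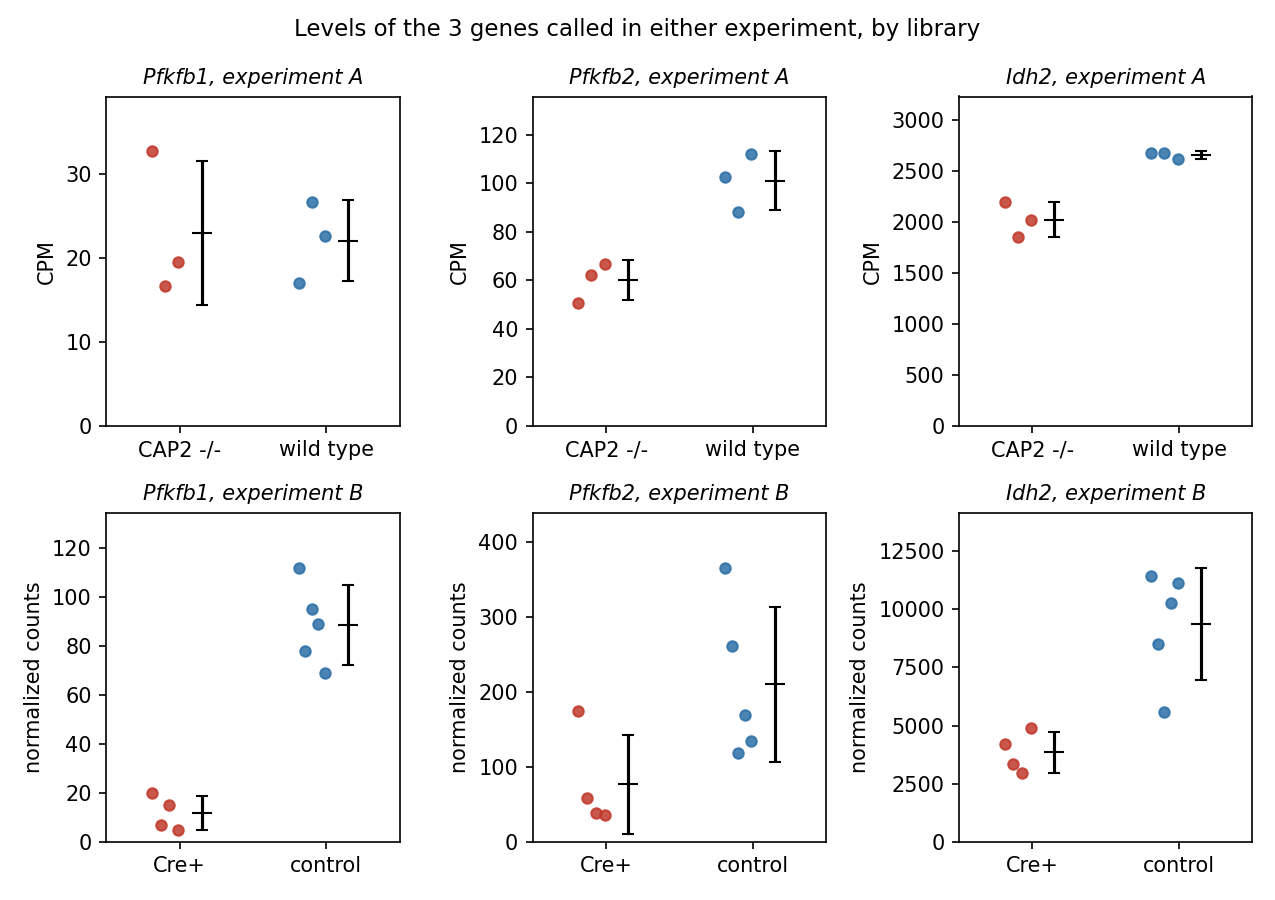
Levels of Pfkfb1, Pfkfb2 and Idh2 in every library (vertical axis, CPM in the top row for experiment A, normalized counts in the bottom row for experiment B), with bars for the mean and SD. In experiment B all 4 Cre+ hearts lie below all 5 controls for Pfkfb1 and Idh2, and in experiment A all 3 CAP2 -/- hearts lie below all 3 wild-type hearts for Pfkfb2 and Idh2.

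Beyond these calls, the share of members whose groups did not overlap was read against that of all genes. Among CAP2 -/- hearts, 1 member lay above every wild-type heart (Pygb) and 6 lay below (Hk2, Pfkm, Pfkfb2, Ldhb, Gys1 and Idh2), where 15.6% of all genes were without overlap (7.63% above and 8% below). In Cre+ hearts 3 members lay above every control (Gpi1, Pfkp and Eno1) and 7 lay below (Slc2a4, Pfkm, Pfkfb1, Pdha1, Dlat, Pdk2 and Idh2), where 8.66% of all genes were without overlap (3.87% above and 4.79% below). Across all 40 members the log2 fold change was below 0 for 27 in CAP2 -/- hearts and for 26 in Cre+ hearts, where 49.1% and 58.5% of all genes were below 0. TMM scaling of experiment B left 25 below 0. The median over the members was -0.05 in CAP2 -/- hearts and -0.43 in Cre+ hearts, against 0.01 and -0.12 over all genes tested. Of the 40 members, 27 (67.5%) had the same sign in both experiments, as had 57.6% of the 11806 genes tested in both.

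Glucose entry was examined through its transporter pair, GLUT1 (Slc2a1), the form of most cells and of the fetal heart, and GLUT4 (Slc2a4), the insulin-responsive form of muscle and fat. Slc2a1 had 59, 158, 129 and 123 normalized counts in Cre+ hearts, against 68, 49, 67, 84 and 76 in controls. Cre+ replicate 1 lay among the controls and the other 3 above all of them (log2 fold change 0.74, SE 0.30, adjusted p 0.182, limma). Slc2a4 had 1246, 1008, 795 and 1155 normalized counts in Cre+ hearts, against 2270, 1698, 1283, 2393 and 1891 in controls. The Cre+ hearts all lay below the controls, though control replicate 3 came close, and the gene was not called (log2 fold change -0.80, SE 0.25, adjusted p 0.11, limma). Both transporters overlapped between CAP2 -/- and wild-type hearts, with log2 fold changes of -0.08 (adjusted p 0.916) for Slc2a1 and -0.11 (adjusted p 0.859) for Slc2a4 (edgeR).

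The ratio of 2 isoenzymes within a library is not moved by a single scaling factor per library, apart from the small value added to each count. The 4 ratios in each experiment were compared with a two-sided exact permutation test over libraries, with p adjusted over all 8. The Slc2a1/Slc2a4 ratio was 0.0481, 0.158, 0.163 and 0.107 in Cre+ hearts, against 0.0304, 0.0294, 0.0530, 0.0355 and 0.0407 in controls. The mean log2 ratio was 1.54 higher in Cre+ hearts, with Cre+ replicate 1 inside the range of the controls (exact p = 0.0159, adjusted 0.0635). In experiment A it was 0.0503, 0.0552 and 0.0482 in CAP2 -/- hearts, against 0.0575, 0.0467 and 0.0452 in wild-type hearts (exact p = 0.7, adjusted 0.7). With 3 libraries against 3 the smallest p is 0.1, so no ratio of experiment A could pass the threshold. With 4 against 5 there are 126 arrangements, so the exact p of experiment B moves in coarse steps. Even at the smallest possible p, a ratio of experiment B could pass only if other ratios also had a low p. The adjusted p of these ratios therefore says little about them.

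Hexokinase I (Hk1) is the form of most tissues and of the fetal heart, and hexokinase II (Hk2) the insulin-regulated form of adult muscle. Hk2 had 301, 318 and 367 CPM in CAP2 -/- hearts, against 544, 442 and 407 CPM in wild-type hearts. The groups did not overlap, and the adjusted p stood just above the threshold (log2 fold change -0.50, SE 0.13, adjusted p 0.072, edgeR). In experiment B Hk2 had 422, 465, 299 and 442 normalized counts in Cre+ hearts, against 697, 624, 417, 1636 and 738 in controls. The groups met at control replicate 3, and control replicate 4 stood far above every other library (log2 fold change -0.78, SE 0.30, adjusted p 0.17, limma). Hk1 had 667, 1019, 832 and 761 normalized counts in Cre+ hearts, against 580, 488, 486, 724 and 501 in controls (log2 fold change 0.57, SE 0.22, adjusted p 0.169, limma). Hk1 in CAP2 -/- hearts had a log2 fold change of 0.12 (adjusted p 0.851), with 239.7 to 382 CPM in CAP2 -/- hearts and 279.9 to 296 CPM in wild-type hearts.

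The Hk1/Hk2 ratio separated the groups in both experiments. It was 0.797, 1.02 and 1.04 in CAP2 -/- hearts, against 0.543, 0.668 and 0.689 in wild-type hearts, a difference of 0.59 in mean log2 ratio (exact p = 0.1, adjusted 0.16). It was 1.58, 2.19, 2.78 and 1.72 in Cre+ hearts, against 0.832, 0.782, 1.17, 0.443 and 0.679 in controls, a difference of 1.44 (exact p = 0.0159, adjusted 0.0635). Every CAP2 -/- and every Cre+ heart thus had a higher ratio than every heart of its comparison group, and neither adjusted p was under 0.05. The ratio tests hold no sex term. Among females alone the difference in experiment B was 1.22 (exact permutation p = 0.1), with 3 libraries on each side, where no lower p is possible.

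**Figure D3:**
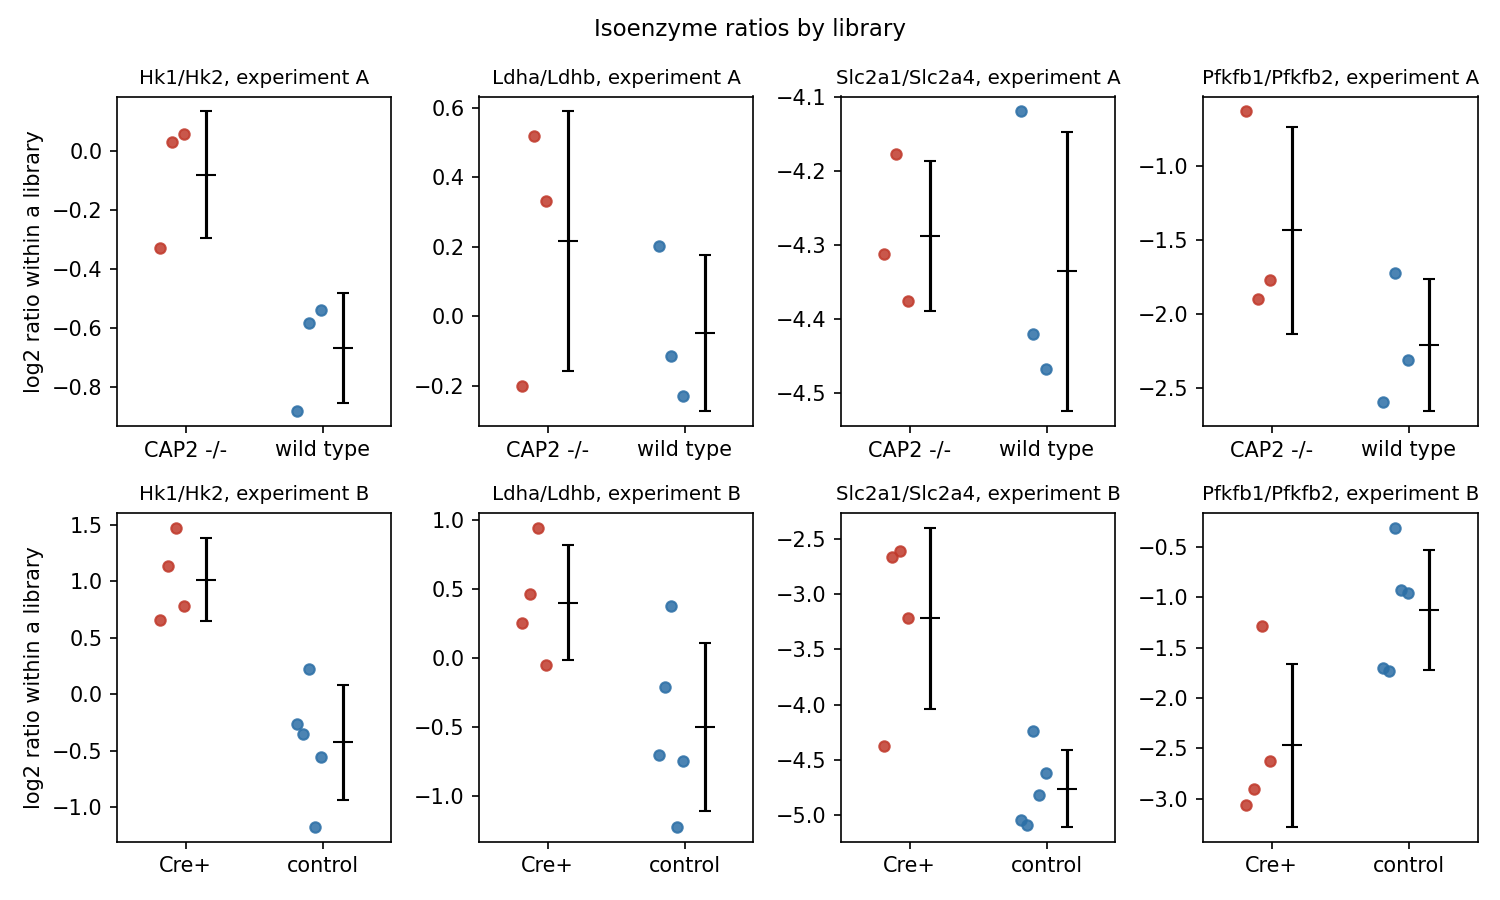
Log2 ratio of the 2 isoenzymes in every library (vertical axis) for 4 pairs, experiment A on top and experiment B below, with bars for the mean and SD. The Hk1/Hk2 panels show groups that do not overlap, with mean log2 ratios of -0.08 ± 0.21 in CAP2 -/- hearts against -0.67 ± 0.19 in wild-type hearts, and 1.01 ± 0.37 in Cre+ hearts against -0.43 ± 0.51 in controls (SD).

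Phosphofructokinase-1 is built from muscle (Pfkm), liver (Pfkl) and platelet (Pfkp) subunits. Pfkm had 1632, 1640, 1245 and 2066 normalized counts in Cre+ hearts, against 3493, 2307, 2374, 6164 and 3142 in controls. All Cre+ hearts lay below all controls (log2 fold change -0.92, SE 0.27, adjusted p 0.0993, limma). Pfkp had 492, 677, 473 and 367 normalized counts in Cre+ hearts, against 298, 235, 296, 190 and 278 in controls. Here all Cre+ hearts lay above all controls, and Pfkp was not called (log2 fold change 0.88, SE 0.22, adjusted p 0.0647, limma). In CAP2 -/- hearts Pfkm had 1096, 1119 and 1189 CPM, against 1523, 1366 and 1396 CPM in wild-type hearts, again without overlap (log2 fold change -0.33, SE 0.11, adjusted p 0.177, edgeR). Pfkp and Pfkl overlapped in experiment A, with log2 fold changes of -0.01 (adjusted p 0.992) and -0.20 (adjusted p 0.676). Per kilobase of exonic length Pfkm was the most abundant of the 3 subunits in every group, at 493 normalized counts per kilobase against 37.5 for Pfkp in Cre+ hearts, and 1047 against 19.4 in controls.

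The remaining enzymes of upper glycolysis, glucose-6-phosphate isomerase (Gpi1), aldolase A (Aldoa) and triosephosphate isomerase (Tpi1), overlapped between the groups of experiment A, with log2 fold changes of 0.003 for Gpi1, 0.01 for Aldoa and -0.02 for Tpi1. In experiment B Gpi1 had 3653, 4671, 4182 and 3419 normalized counts in Cre+ hearts, against 3328, 3239, 3014, 2516 and 2895 in controls. All Cre+ hearts lay above all controls, by a small margin (log2 fold change 0.37, SE 0.21, adjusted p 0.328, limma). Aldoa and Tpi1 overlapped there, with log2 fold changes of 0.41 (adjusted p 0.411) and -0.01 (adjusted p 0.976).

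Lower glycolysis, from glyceraldehyde-3-phosphate dehydrogenase to pyruvate kinase, had 7 members, of which 6 had a log2 fold change above 0 in Cre+ hearts (median 0.19) and 3 in CAP2 -/- hearts (median -0.05). The number above 0 was the same under TMM and quantile scaling of experiment B. None of the 7 was called in either experiment, while quantile normalization of experiment B called Eno1. Enolase 1 (Eno1), the form of most cells and of the embryonic heart, had 651, 901, 1074 and 594 normalized counts in Cre+ hearts, against 457, 387, 342, 328 and 457 in controls. All Cre+ hearts lay above all controls (log2 fold change 0.97, SE 0.23, adjusted p 0.0616, limma). It was called in 4 of 18 alternative settings, namely quantile normalization and the fits without Cre+ replicate 1, control replicate 4 or control replicate 5, with adjusted p from 0.0332 to 0.866 over the 18. Enolase 3 (Eno3), the form of adult muscle, had 5934, 4330, 3112 and 5914 normalized counts in Cre+ hearts, against 11676, 7830, 4986, 8947 and 8127 in controls. Its groups overlapped at control replicate 3 (log2 fold change -0.74, SE 0.31, adjusted p 0.195, limma). Eno3 stood above Eno1 per kilobase, at 2773 normalized counts per kilobase against 149.7 in Cre+ hearts and 4780.4 against 73.3 in controls. The log2 fold changes in CAP2 -/- hearts were 0.13 (adjusted p 0.798) for Eno1 and -0.10 (adjusted p 0.816) for Eno3. Gapdh, Pgk1, Pgam1 and Pgam2 had log2 fold changes of 0.40, 0.25, 0.19 and 0.07 in Cre+ hearts and of 0.05, 0.08, -0.11 and -0.05 in CAP2 -/- hearts, with overlapping groups throughout.

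Several of these genes have near-identical copies that share reads with them. In experiment A, of the summed level of a gene and its named copies, the copies held 74.9% to 78.2% for Pgk1, 60.4% to 71.3% for Gapdh, 60.4% to 68.8% for Pgam1, 58.5% to 66.7% for Eno1, 32.3% to 40.1% for Aldoa and 3.46% to 6.03% for Ldha, over the 6 libraries. In experiment B the copies were at 0 to 3 normalized counts. The levels of these genes in experiment A are therefore uncertain, and levels of a gene should not be set side by side across the experiments. With copies added, the log2 fold changes in CAP2 -/- hearts were 0.05 for Pgk1, 0.08 for Gapdh, -0.12 for Pgam1, 0.22 for Eno1, 0.10 for Aldoa and -0.09 for Ldha, and none was called.

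**Figure D4:**
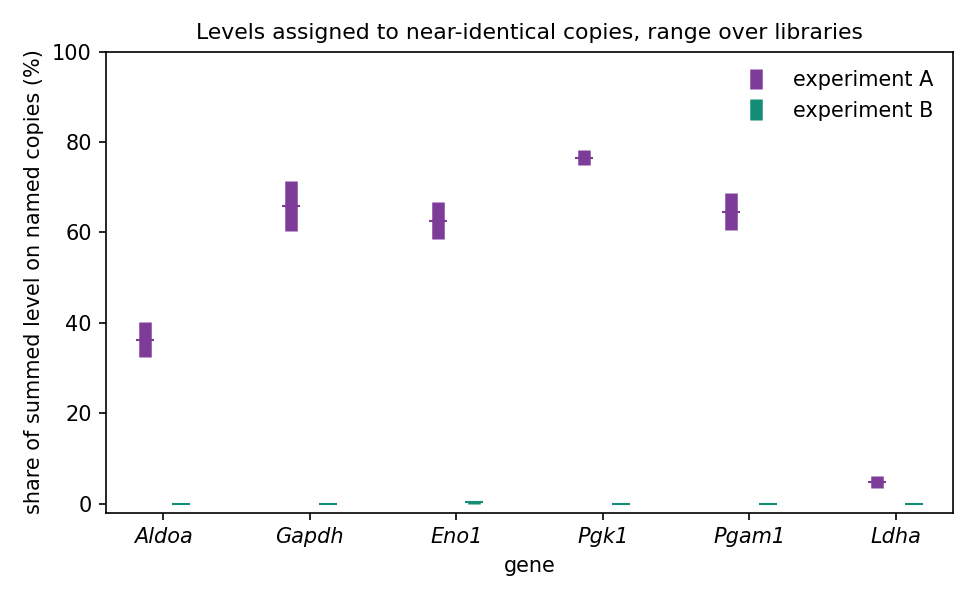
Share of the summed level of a gene and its near-identical copies that was assigned to the copies (vertical axis, percent), as bars from the lowest to the highest library of each experiment. The bars of experiment A lie between 3.46% for Ldha and 78.2% for Pgk1, and those of experiment B lie at or near 0.

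Pyruvate kinase (Pkm) is spliced with either of 2 exons, M1 in adult muscle or M2 in fetal and many other cells. The exon rows of experiment A hold both, and their sequences are shown because they are what tells the forms apart. Both exons have the same length, on the plus strand of GRCm38, and capitals mark the 64 positions at which they differ.
Pkm M1 exon, chr9:59675029-59675195: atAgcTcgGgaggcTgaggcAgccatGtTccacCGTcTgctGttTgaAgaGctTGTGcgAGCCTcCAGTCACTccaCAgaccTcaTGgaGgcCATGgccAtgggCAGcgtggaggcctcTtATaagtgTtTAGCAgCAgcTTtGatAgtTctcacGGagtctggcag
Pkm M2 exon, chr9:59675568-59675734: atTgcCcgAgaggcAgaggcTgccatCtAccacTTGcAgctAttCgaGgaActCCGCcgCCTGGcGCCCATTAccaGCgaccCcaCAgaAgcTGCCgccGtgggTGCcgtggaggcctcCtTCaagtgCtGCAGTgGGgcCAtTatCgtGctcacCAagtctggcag
The M2 exon held 1.90%, 1.07% and 1.35% of the estimated counts of both exons in CAP2 -/- hearts, against 1.21%, 1.79% and 0.960% in wild-type hearts. Means were 1.44% ± 0.422 in CAP2 -/- hearts and 1.32% ± 0.424 in wild-type hearts (SD, n = 3 each), and the groups overlapped (two-sided exact permutation p = 0.7). These shares rest on 9.63 to 27.4 estimated counts of the M2 exon per library, and with 3 libraries against 3 no difference could give a p under 0.1. The whole gene had a log2 fold change of -0.19 (adjusted p 0.643) in CAP2 -/- hearts and 0.13 (adjusted p 0.749) in Cre+ hearts.

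Lactate dehydrogenase A (Ldha) and B (Ldhb) are the subunits of the enzyme that interconverts pyruvate and lactate, with B known as the form of the oxidative heart. Ldhb had 616, 617 and 632 CPM in CAP2 -/- hearts, against 740.5, 834 and 898 CPM in wild-type hearts. The groups did not overlap (log2 fold change -0.41, SE 0.11, adjusted p 0.0905, edgeR). In experiment B Ldhb had 2528, 2828, 1956 and 3440 normalized counts in Cre+ hearts, against 5859, 3693, 2301, 7693 and 6425 in controls. Control replicate 3 lay below 3 of the Cre+ hearts (log2 fold change -0.74, SE 0.30, adjusted p 0.185, limma). Ldha overlapped in both experiments, with log2 fold changes of -0.11 (adjusted p 0.884) in CAP2 -/- hearts and 0.05 (adjusted p 0.901) in Cre+ hearts. The Ldha/Ldhb ratio was 1.19, 1.38, 1.92 and 0.963 in Cre+ hearts, against 0.614, 0.864, 1.30, 0.428 and 0.595 in controls, with a mean log2 ratio 0.90 higher in Cre+ hearts (exact permutation p = 0.0476, adjusted 0.0952). It was 0.869, 1.43 and 1.26 in CAP2 -/- hearts, against 1.15, 0.923 and 0.852 in wild-type hearts (exact permutation p = 0.3, adjusted 0.343). The Pfkfb1/Pfkfb2 ratio was 0.119, 0.133, 0.410 and 0.162 in Cre+ hearts, against 0.308, 0.300, 0.807, 0.526 and 0.515 in controls (difference -1.35 in mean log2 ratio, exact permutation p = 0.0397, adjusted 0.0952). With a pseudocount of 10 in place of 1 this difference shrank to -0.75 (exact permutation p = 0.135, adjusted 0.216). In experiment A it was 0.646, 0.268 and 0.293 in CAP2 -/- hearts, against 0.165, 0.303 and 0.202 in wild-type hearts (difference 0.78, exact permutation p = 0.3, adjusted 0.343). Among females alone, the differences in experiment B were 1.57 for Slc2a1/Slc2a4, 0.73 for Ldha/Ldhb and -1.17 for Pfkfb1/Pfkfb2 (exact permutation p = 0.2, 0.2 and 0.3).

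Glycogen phosphorylase, which releases glucose from glycogen, has a muscle form (Pygm) and a brain form (Pygb) that is also the main fetal form. Pygb had 1723, 1559.9 and 1686 CPM in CAP2 -/- hearts, against 1306, 1259.9 and 1165 CPM in wild-type hearts. It was the only member to lie above every wild-type heart, and edgeR did not call it (log2 fold change 0.41, SE 0.11, adjusted p 0.0704). Per kilobase Pygm was the more abundant, at 539 CPM per kilobase against 344 for Pygb in CAP2 -/- hearts and 574 against 259 in wild-type hearts. In Cre+ hearts Pygb overlapped with the controls (log2 fold change 0.17, SE 0.33, adjusted p 0.789, limma), as did Pygm (log2 fold change -0.32, SE 0.30, adjusted p 0.548). Glycogen synthase (Gys1) had 226, 217 and 206 CPM in CAP2 -/- hearts, against 239, 257 and 249 CPM in wild-type hearts. The groups did not overlap, and the difference was small (log2 fold change -0.20, SE 0.11, adjusted p 0.571, edgeR). In Cre+ hearts Gys1 had a log2 fold change of -0.73 (adjusted p 0.194), and the branching enzyme Gbe1 one of -0.62 (adjusted p 0.471). Gbe1 in CAP2 -/- hearts stood at 0.05 (adjusted p 0.927).

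The pyruvate dehydrogenase complex was measured through its E1 subunits (Pdha1 and Pdhb), its E2 subunit (Dlat) and 2 of the kinases that switch it off (Pdk1 and Pdk2). All 5 had a log2 fold change below 0 in both experiments, with a median of -0.65 in Cre+ hearts and -0.13 in CAP2 -/- hearts, and none was called. In experiment B this held under TMM and quantile scaling too. Dlat had 616, 762, 557 and 624 normalized counts in Cre+ hearts, against 1036, 836, 817, 2475 and 1171 in controls (log2 fold change -0.78, SE 0.29, adjusted p 0.157, limma). Pdk2 had 892, 924, 813 and 1066 normalized counts in Cre+ hearts, against 1964, 1385, 1333, 2302 and 1342 in controls (log2 fold change -0.78, SE 0.24, adjusted p 0.105, limma). Both lay below every control in every Cre+ heart, as did Pdha1 (log2 fold change -0.65, SE 0.32, adjusted p 0.256). Pdhb and Pdk1 overlapped, with log2 fold changes of -0.58 (adjusted p 0.193) and -0.41 (adjusted p 0.577). The 5 log2 fold changes in CAP2 -/- hearts ran from -0.20 (Pdhb) to -0.03 (Pdha1). The other 2 kinases, Pdk3 and Pdk4, are not among the 40 genes and were added after their values were seen. Pdk3 had 25, 26, 83 and 46 normalized counts in Cre+ hearts, against 3, 12, 20, 8 and 20 in controls, without overlap (log2 fold change 1.87, SE 0.56, adjusted p 0.103, limma). Pdk4 overlapped, with a log2 fold change of 0.15 (adjusted p 0.9). In CAP2 -/- hearts the log2 fold changes were -0.37 (adjusted p 0.792) for Pdk3 and 0.27 (adjusted p 0.727) for Pdk4.

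The citrate cycle was measured through 10 genes, from citrate synthase (Cs) to the malate dehydrogenases. In Cre+ hearts all 10 had a log2 fold change below 0 (median -0.50), and all 10 stayed below 0 when the values were scaled by TMM or quantile-normalized. Idh2 was the called one. Sucla2, the ATP-forming subunit of succinyl-CoA synthetase, had 992, 895, 654 and 1288 normalized counts in Cre+ hearts, against 1616, 1167, 1085, 4923 and 2265 in controls. Its groups overlapped, and control replicate 4 lay more than 2 times above the next control (log2 fold change -0.84, SE 0.30, adjusted p 0.145, limma). Idh3b had 835, 1003, 899 and 1067 normalized counts in Cre+ hearts, against 2074, 968, 1226, 3854 and 2094 in controls, also with overlap (log2 fold change -0.83, SE 0.30, adjusted p 0.157, limma). Cs had 2685, 3105, 2717 and 3052 normalized counts in Cre+ hearts, against 4944, 3672, 3056, 9260 and 4361 in controls (log2 fold change -0.62, SE 0.29, adjusted p 0.233, limma). Its lowest control lay below the highest Cre+ heart. The remaining 6 had log2 fold changes from -0.54 (Mdh1, the cytosolic malate dehydrogenase) to -0.12 (Mdh2, the mitochondrial one), among them -0.46 for Suclg1, -0.45 for Idh3a, -0.36 for Fh1 (fumarase) and -0.31 for Idh3g, with adjusted p from 0.29 to 0.827. In CAP2 -/- hearts 6 of the 10 were below 0, with a median of -0.01, and apart from Idh2 the log2 fold changes ran from -0.10 (Cs) to 0.08 (Idh3g).

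Summed over each library, the citrate cycle members were set against the members from glucose uptake to lactate dehydrogenase. A single scaling factor per library cannot move this ratio, and the most abundant genes contribute most to it. It was 0.385, 0.347, 0.358 and 0.464 in Cre+ hearts, against 0.565, 0.492, 0.516, 0.972 and 0.682 in controls. Every Cre+ heart lay below every control, by a narrow margin between Cre+ replicate 4 and control replicate 2. It was 1.10, 0.994 and 0.990 in CAP2 -/- hearts, against 0.951, 0.981 and 1.07 in wild-type hearts, with overlap. No test is given, because the genes were chosen with earlier results known.

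**Figure D5:**
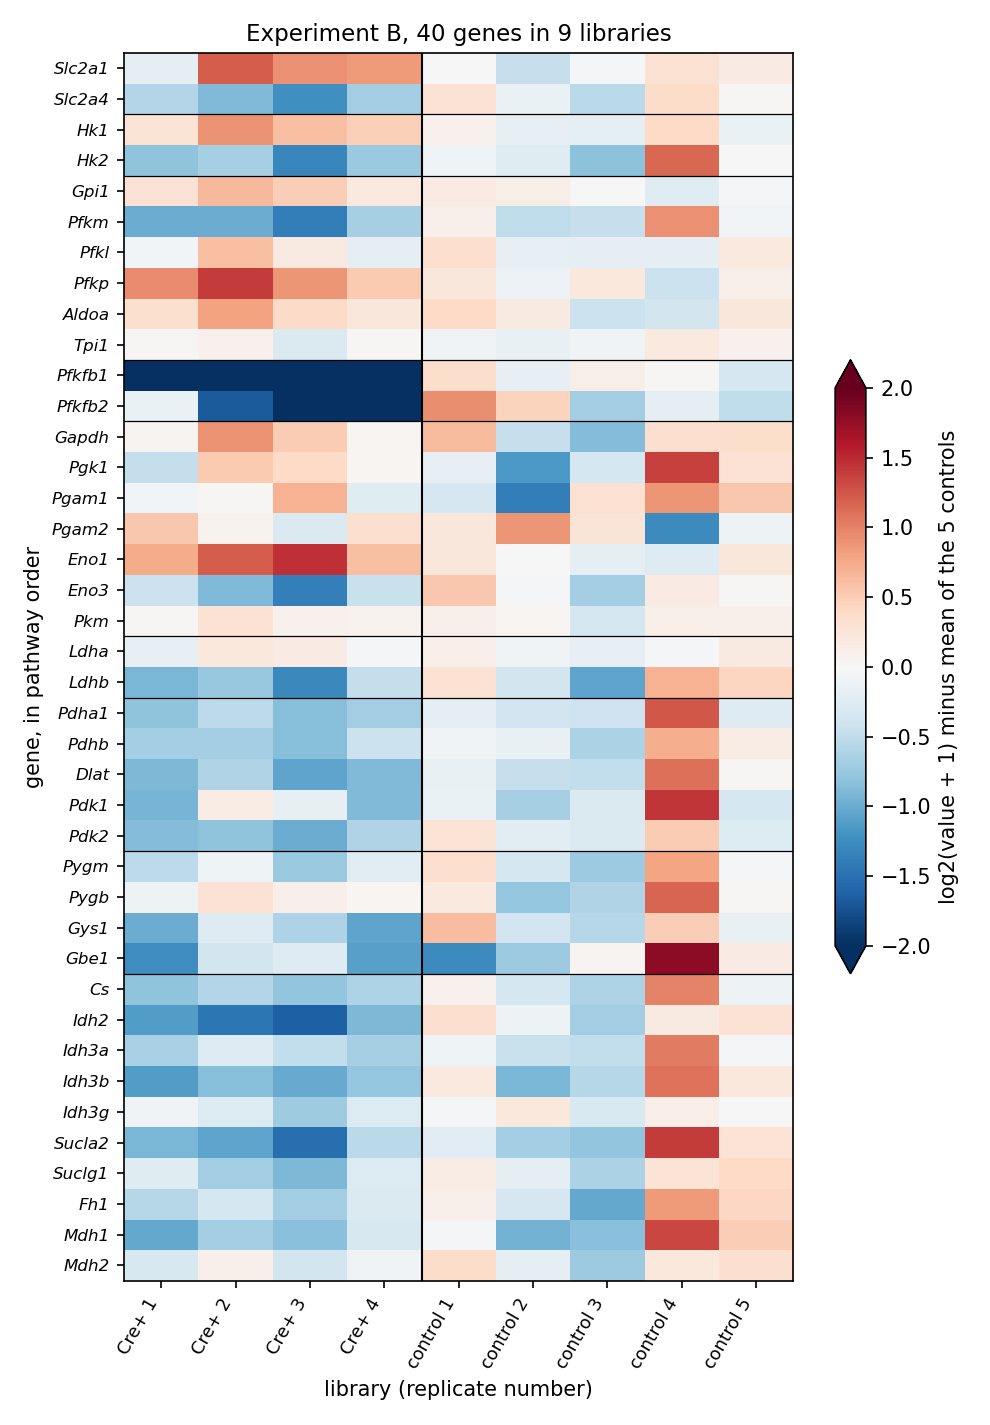
Level of each of the 40 genes (rows, in pathway order) in the 9 libraries of experiment B (columns, Cre+ left of control), as the difference of log2(value + 1) from the mean of the 5 controls. Blue (lower) prevails in the Cre+ columns from the pyruvate dehydrogenase rows downwards, and control 4 is red (higher) in most of those rows.

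The controls of experiment B varied among themselves. Control replicate 4, a male, had the highest control value of 24 of the 40 members, and control replicate 3 the lowest of 25. Control replicate 3 also had the highest mitochondrially encoded share, 69.5%, and control replicate 4 the lowest among controls, 30.4%. With that share as a covariate Pfkfb1 was the 1 member called, and 36 genes in all were called. The part of these differences in the results above was not tested beyond this fit.

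Marker genes of other cell types also differed between the groups. The 6 atrial markers together ran from 83867 to 175240 normalized counts in Cre+ hearts and from 105 to 9895 in controls. Without Nppa, a natriuretic peptide gene that ventricles under load also express, they ran from 491 to 43024 in Cre+ hearts and from 105 to 7384 in controls, with overlap. In experiment A the 6 markers ran from 3848 to 4586 CPM in CAP2 -/- hearts and from 114 to 156 CPM in wild-type hearts, and without Nppa from 36.7 to 41.6 CPM in CAP2 -/- hearts and from 39.9 to 41.4 CPM in wild-type hearts. The 7 fibroblast markers together ran from 9709 to 28761 normalized counts in Cre+ hearts and from 2847 to 12347 in controls, and from 1156 to 1176 CPM in CAP2 -/- hearts and from 780.5 to 850.1 CPM in wild-type hearts. The summed markers of skeletal muscle, red blood cells, endothelium, smooth muscle, macrophages, fat and Schwann cells overlapped between the groups in both experiments, and no marker of any list was at 0 throughout an experiment. Of the skeletal muscle markers, 1 of 9 tested was called higher in CAP2 -/- hearts (Casq1), where 0.841% of all genes were, and 3 of 5 tested in Cre+ hearts (Tnnt3, Tnni2 and Casq1), where 0.947% of all genes were. Of the 7 fibroblast markers, Postn was called higher in Cre+ hearts. With the atrial level (mean log2 of the 6 markers, Nppa included) as a covariate no member of experiment B was called, and 9 genes in all were. Since the 6 markers together did not overlap between Cre+ hearts and controls, this covariate also takes up group difference. The fit therefore cannot tell the atrial level from the genotype. In whole-heart RNA, fewer cells of a type and less RNA per cell cannot be told apart, and the part of these markers in the members' results was not tested.

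The rest of these pathways was followed in 77 further genes. In CAP2 -/- hearts 73 were tested, 1 rose and 3 fell, where 0.841% of all genes were called higher and 0.509% lower. Glycerol-3-phosphate dehydrogenase 1 (Gpd1), which drains glycolysis towards glycerol 3-phosphate, had 54.3, 51.3 and 50.4 CPM in CAP2 -/- hearts, against 81.4, 101 and 87.5 CPM in wild-type hearts (log2 fold change -0.79, SE 0.12, adjusted p 0.00191, edgeR). Ogdhl, a relative of the E1 subunit of oxoglutarate dehydrogenase, also fell (log2 fold change -0.99, SE 0.13, adjusted p 0.000514, edgeR). The gene that rose, Ugp2, makes UDP-glucose for glycogen, and had 457, 539.9 and 433 CPM in CAP2 -/- hearts, against 312, 279.5 and 329.8 CPM in wild-type hearts (log2 fold change 0.63, SE 0.12, adjusted p 0.00999, edgeR).

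In Cre+ hearts 70 of the 77 were tested, 0 rose and 2 fell, where 0.947% of all genes were called higher and 0.931% lower. Both also fell in CAP2 -/- hearts. Gpd1 had 112, 147, 137 and 127 normalized counts in Cre+ hearts, against 285, 227, 210, 258 and 270 in controls (log2 fold change -0.92, SE 0.20, adjusted p 0.0437, limma). Ogdhl had 91, 87, 50 and 93 normalized counts in Cre+ hearts, against 980, 462, 443, 964 and 908 in controls (log2 fold change -3.08, SE 0.29, adjusted p 0.000632, limma). The groups did not overlap for either gene. Ugp2 had a log2 fold change of -0.08 (adjusted p 0.882) there. At an unadjusted p under 0.05, limma gave 3 of the 70 higher and 12 lower, where 22.1% of all genes reached that mark (7.89% higher and 14.2% lower), so the count is near the background. Of the other citrate cycle genes 13 of 14 had a log2 fold change below 0 in Cre+ hearts (median -0.45), and 10 of 14 in CAP2 -/- hearts (median -0.07). Of the 9 genes of the pentose phosphate and hexosamine branches 6 were above 0 in Cre+ hearts (median 0.30) and 2 in CAP2 -/- hearts (median -0.09), and none was called.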

How the data were processed

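RNA of whole hearts was sequenced from Ion Total RNA-Seq Kit v2 libraries (experiment A) and TruSeq stranded mRNA libraries (experiment B), per the labels' protocols. The submitters' processing notes name mm10 (GRCm38), STAR 2.6.0c and DESeq without a role. The counting tool and annotation were not given in the sources used here. Experiment A comes with estimated counts per gene and exon, deposited by the authors with transcript rows that run from 0 to 1. These rows were read as transcript shares within a gene, which no source states. The authors also deposited a comparison with a mean normalized signal, log2 fold changes, a test score and p-values, per the file headers. The deposited values of experiment B are whole normalized counts, treated as a score since no source states the method; reads could not be recovered, so no count test was run.

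GENCODE M21 held 36308 of 38087 identifiers (A) and 54079 of 54232 (B) and gave exonic lengths. Rounded estimated counts entered edgeR 4.0.16 (R 4.3.3; TMM, filterByExpr, robust quasi-likelihood). CPM are per TMM-adjusted total, and an SE from edgeR is the absolute log2 fold change over the square root of F. Limma 3.58.1 (robust trend) was run on log2(value + 1) of genes averaging at least 10 in experiment B, with a sex term. Ratios are of values plus a pseudocount of 0.5 counts (A) or 1 (B). The tests were checked on simulated data, drawn with the same dispersion for every gene and without a sex effect. That check does not cover controls that vary as those of experiment B do. Alternatives were DESeq2 1.42.0, other scalings, filters and pseudocounts, covariates, females only, a replicate block and leaving out each library; summing copies was added after seeing the data. The members and lists were chosen with earlier results of these data known. By rule, called members and the isoenzyme pairs are named with full statistics, as is every called gene of the other pathway lists except 1, which is not reported here; further members are named by step.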

Additional observations from a re-analysis of the deposited data

Results flagged for a closer look

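In experiment B, 88 combinations of a member or ratio with a group were examined, each of 4 or 5 libraries. In 4 of them 1 library stood apart, by a gap on the log2 scale larger than Dixon's 95% limit. Chance alone would flag about 1 in 20. Tpi1 stood at 2585 normalized counts in Cre+ replicate 3, against 3200 to 3331 in the other Cre+ hearts. Pkm stood at 3614 in control replicate 3, against 4767 to 5008 in the other controls. Pdha1 stood at 7697 in control replicate 4, against 2444 to 2847 in the other controls, and Pdk1 at 1327 in the same library, against 310 to 452.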

How the results depend on the processing

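No result changed direction among called values, and among members not called in either of 2 settings the sign differed from the main result in 40 of 421 values in experiment A and 35 of 674 in experiment B. In experiment A, DESeq2 called 1 member higher and 4 lower (402 genes in all), and no filter on low counts gave 4 lower (512 in all; 0 higher). Leaving out 1 library at a time gave 1 to 2 members lower and 126 to 275 genes in all; the second member, without CAP2 -/- replicate 1, was Idh2. In experiment B, 346 genes in all were called without a filter. TMM scaling called 1 member lower and moved the share of higher calls among all genes to 69.3%, against 50.4% in the main fit, while the median of all genes rose by 0.09 on the log2 scale. Quantile normalization called 2 members higher (Eno1 and Pfkp). Members called lower numbered 1 with the mitochondrial share as a covariate (36 genes in all), 0 with the atrial level (9 in all) and 1 in females only. Leaving out 1 library gave 0 to 2 members higher, 1 to 3 lower and 39 to 695 genes in all. The highest of these came without Cre+ replicate 1, when Eno1 and Slc2a1 rose and Pfkfb1, Pfkfb2 and Idh2 fell. The cause of these changes was not tested, apart from the fewer samples of the fits that leave some out.

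No label states that the replicate numbers mark pairs. Same-numbered libraries deviated together with correlations from -0.17 to -0.02 in experiment A and from -0.11 to 0.24 in experiment B. Differently numbered libraries had correlations from -0.07 to 0.18 in experiment A and from -0.47 to 0.35 in experiment B. So few libraries cannot decide whether pairs exist. With a replicate block edgeR called 1 member lower in experiment A. Limma called 394 genes and 2 members lower (Pfkfb1 and Pfkfb2) in experiment B, without control replicate 5. With pairs, the exact sign-flip p was 0.125 for each ratio of experiment B, the smallest possible, and 0.25 to 0.75 in experiment A. The lack of recoverable reads leaves the precision of low values in experiment B, such as Pfkfb1 at 5 to 20 normalized counts in Cre+ hearts, unknown.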
